A study of Mus musculus with 18 samples.

Results

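In mouse embryonic stem cells labelled Rescue, the 3 arrays titled 8h2h were compared with the 3 titled 8h, taken by their titles. They are 6 of the 18 arrays of the series, and the slide letters a, b and c pair them. The main test did not use this pairing, and a fit paired by slide is given beside it. All cells were of strain 129SV, carried an Esrrb knockout and expressed Raf-ErT2, a Raf kinase fused to a hormone-binding domain that 4-hydroxytamoxifen (4OHT) switches on. The arrays labelled Rescue came from cells given an Esrrb transgene, and those labelled KO from cells given an empty vector as control. Cells grew in serum with LIF and 2 µM Chir99021, a GSK3 inhibitor, which was replaced for the last 24 h before treatment by 250 nM PD173074, an FGF receptor inhibitor. Going by the titles and the treatment text, cells titled 8h2h received 250 nM 4OHT for 8 h and then a Mek inhibitor for 2 h, which the design text names PD03. Cells titled 8h received 250 nM 4OHT for 8 h, and cells titled 0h received no treatment. The question was what followed 2 h of Mek inhibition after Raf had been active.

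The labels contradict each other on which group received the inhibitor. The source names of all 6 arrays state the opposite assignment to the titles, as they do on 12 of the 18 arrays. Groups are called by title throughout, and if the source names hold, the sign of each change between 8h2h and 8h turns round, while a difference from 0h keeps its sign and belongs to the other title. By the titles the inhibitor goes together with 2 h more of culture, and the 2 cannot be told apart. Each of the 3 slides held all 6 groups once, each group in the same place, and an effect of place cannot be told apart from one of group. The labels do not state whether slides a, b and c carry separate cultures. Each p therefore reflects array-to-array spread, which may be technical.

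The 6 arrays were alike in quality. Probes well above background made up 60.4% to 63.8% on the arrays titled 8h2h, against 60.5% to 61.8% on those titled 8h, and the median negative-control signal was 25 to 27.5 and 25 to 27. One array outside the comparison, KO-labelled, titled 8h2h, slide b, stood apart with 88.6% of probes above background and a negative-control median of 42. It enters the shared estimate of spread, and counts without it are given beside the first result. All 14 ES cell markers looked for, Pou5f1 and Sall4 among them, were well above background on all 3 arrays of both groups. So were 15637 of the 16022 genes tested at 8h2h and 15545 at 8h. The same held for all 10 neural and all 21 trophoblast genes tested, and for 12 and 11 of 13 fibroblast markers. Detection therefore does not set the ES cell markers apart. Esrrb itself read 1.78, 1.53 and 1.56 on slides a, b and c in the arrays titled 8h2h, against 2.15, 1.75 and 1.83 in those titled 8h (log2 scaled signal, defined below). The KO-labelled arrays read more Esrrb, 4.30, 3.26 and 4.00 when titled 8h2h and 4.09, 3.50 and 3.65 when titled 8h, so this signal goes against the labels Rescue and KO. It is not known whether this probe falls within the deletion.

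Raf phosphorylates Mek kinases, which in turn phosphorylate ERK kinases. Active ERK induces a fast wave of genes, among them immediate-early transcription factors and feedback inhibitors such as the dual-specificity phosphatases (Dusp) and Sprouty proteins (Spry) that dampen the same cascade. In mouse embryonic stem cells FGF4 and ERK signalling moves cells out of the naive pluripotent state, and Mek inhibitors are used in culture to hold them in it.

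Of the 27 feedback and immediate-early genes lower on the arrays titled 8h2h, 18 had an entry in the RefSeq promoter table (build GRCm38.p6). The 250 bases before the start are printed for the 5 of these with the largest falls, Dusp6, Fos, Spry2, Dusp1 and Zfp36l1, and for Dusp5 and Zfp36, added because their windows held CArG boxes. All run 5′ to 3′ on the gene's strand and end at the base before the start, and capitals mark motif matches.
Dusp6: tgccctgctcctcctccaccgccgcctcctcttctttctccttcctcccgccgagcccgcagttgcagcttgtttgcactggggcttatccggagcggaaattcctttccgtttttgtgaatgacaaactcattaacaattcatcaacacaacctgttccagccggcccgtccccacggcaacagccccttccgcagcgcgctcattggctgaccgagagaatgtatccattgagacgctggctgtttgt
Fos: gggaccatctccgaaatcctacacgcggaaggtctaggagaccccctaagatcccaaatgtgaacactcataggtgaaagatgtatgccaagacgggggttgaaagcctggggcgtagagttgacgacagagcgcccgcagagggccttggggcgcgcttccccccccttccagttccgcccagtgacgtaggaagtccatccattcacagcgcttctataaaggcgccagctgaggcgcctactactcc
Spry2: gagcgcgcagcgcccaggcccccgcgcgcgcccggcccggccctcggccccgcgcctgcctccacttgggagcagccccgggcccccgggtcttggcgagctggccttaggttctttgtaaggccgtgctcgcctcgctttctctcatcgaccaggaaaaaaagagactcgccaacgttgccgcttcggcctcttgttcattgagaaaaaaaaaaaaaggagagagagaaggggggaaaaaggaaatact
Dusp1: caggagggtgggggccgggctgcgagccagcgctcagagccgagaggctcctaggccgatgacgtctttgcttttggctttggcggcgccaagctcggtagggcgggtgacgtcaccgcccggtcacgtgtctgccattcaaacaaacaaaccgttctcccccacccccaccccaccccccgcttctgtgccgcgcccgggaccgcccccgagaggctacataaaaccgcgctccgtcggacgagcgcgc
Zfp36l1: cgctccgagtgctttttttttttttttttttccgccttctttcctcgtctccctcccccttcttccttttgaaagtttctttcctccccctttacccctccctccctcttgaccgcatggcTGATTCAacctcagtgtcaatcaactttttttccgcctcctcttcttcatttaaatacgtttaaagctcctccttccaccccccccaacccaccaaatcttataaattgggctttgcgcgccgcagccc
Dusp5: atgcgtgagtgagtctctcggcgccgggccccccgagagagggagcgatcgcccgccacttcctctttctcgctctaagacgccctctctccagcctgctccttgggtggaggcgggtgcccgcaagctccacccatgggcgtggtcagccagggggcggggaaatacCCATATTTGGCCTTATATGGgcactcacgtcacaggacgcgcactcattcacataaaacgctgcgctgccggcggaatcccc
Zfp36: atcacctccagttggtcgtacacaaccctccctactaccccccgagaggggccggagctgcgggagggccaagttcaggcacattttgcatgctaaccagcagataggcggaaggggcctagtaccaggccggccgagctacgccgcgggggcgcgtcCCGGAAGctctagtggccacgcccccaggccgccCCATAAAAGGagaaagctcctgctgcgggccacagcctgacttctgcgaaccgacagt
The windows are chr10:99262981-99263230 (+ strand) for Dusp6, chr12:85473640-85473889 (+ strand) for Fos, chr14:105896820-105897069 (- strand) for Spry2, chr17:26508473-26508722 (- strand) for Dusp1, chr12:80113014-80113263 (- strand) for Zfp36l1, chr19:53528895-53529144 (+ strand) for Dusp5 and chr7:28379229-28379478 (- strand) for Zfp36. The motifs searched on both strands were AP-1 (TGANTCA), ETS (CCGGAAG), EGR (GCGTGGG) and the CArG box bound by SRF. Zfp36l1 held an AP-1 match at -129 to -123 from the start. Dusp5 held adjoining CArG boxes at -82 to -73 and -72 to -63. Zfp36 held an ETS match at -92 to -86 and a CArG box at -58 to -49. Junb, not printed, held an EGR match at -81 to -75. A CArG box lay in 2 of the 18 windows (11.1%), against 172 of the 12673 windows of tested genes (1.36%) and 1.4% of all 27025 windows. The other motifs lay in 1 window each (5.56%), against 4.81% (AP-1), 11.9% (ETS) and 6.57% (EGR) of the windows of tested genes. Over all 27025 windows the shares were 6.87%, 7.05% and 4.2%. Matches describe letters in these windows only.

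Signals are given as log2 of the processed intensity minus each array's 75th percentile, so 0 is that percentile and 1 unit is a doubling, and changes are 8h2h minus 8h. Of 16022 genes tested, 462 (2.88%) passed an adjusted p below 0.05, 229 higher (1.43%) and 233 lower (1.45%) on the arrays titled 8h2h (limma over all 18 arrays, Benjamini-Hochberg adjustment, two-sided). All 462 had the same sign on the 3 slides, but these are the arrays from which they were called, so this adds no support. Of the 462, 115 fell and 96 rose at least 2-fold. The fit over 18 arrays uses 1 spread per gene for all groups and no term for slide. Its SE and adjusted p are therefore not within-slide ones, and they are those printed unless paired by slide is stated. Fitted on the 6 arrays alone and paired by slide, 4099 genes passed (25.6%), 2258 higher and 1841 lower, including all 462. That paired fit has only 2 residual degrees of freedom. All counts of list members paired by slide below are to be read against its share of 25.6%. Those from the main fit are to be read against 1.43% higher and 1.45% lower over all genes. A count near these shares is no result about the list. Without the high-background array 718 passed, and leaving out 1 of the 6 arrays at a time gave 228 to 276, lowest without slide a of 8h2h or slide b of 8h. Without scaling between arrays 91 passed.

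ERK feedback inhibitors were lower in part. Of 22 listed, 21 were tested, 10 fell, 0 rose and 11 did not pass, with a median change of -0.74 against 0.00 over all genes, and the count of 10 stayed at 10 without any 1 of the 6 arrays. Paired by slide on the 6 arrays, 12 fell and 4 rose.

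Dusp6, the cytoplasmic phosphatase that inactivates ERK, read 0.15, 0.61 and 0.52 on slides a, b and c in the arrays titled 8h2h, against 4.64, 4.61 and 4.78 in those titled 8h. Its change was -4.25 ± 0.23 (SE, limma adjusted p = 1.42e-07). Its mean at 0h was 2.69, so the 8h2h level stood below the untreated one (8h2h minus 0h -2.27 ± 0.23, adjusted p = 8.8e-06). Spry4, a membrane-associated inhibitor of receptor tyrosine kinase signalling, read -4.69, -4.22 and -4.60, against 0.57, 0.16 and 0.71. Spry4 thus had the largest fall among the genes that passed, 31.6-fold, to below its 0h mean of -3.37 (8h2h minus 0h -1.13 ± 0.38, adjusted p = 0.0447). Over the alternatives its change ranged from -5.14 to -3.19, against -4.79 to -4.45 for the chemokine gene Ccl20. The rank of Spry4 therefore depends on the processing.

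Its paralogue Spry2 read 0.49, 0.68 and 0.48, against 3.42, 3.43 and 3.30, a change of -2.83 ± 0.16 (adjusted p = 1.42e-07). Both probes of Spry2 fell, the other by 1.52. Spry1 fell by 1.43 ± 0.21 (adjusted p = 0.00118), with 1.05, 0.47 and 0.76, against 2.46, 2.05 and 2.06. Among nuclear phosphatases, Dusp1 read 1.95, 2.17 and 2.23, against 4.53, 4.76 and 4.74 (-2.56 ± 0.21, adjusted p = 7.22e-06). The groups were thus separated by more than 2 units for Dusp1, as for Spry2.

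Dusp2, Dusp4 and Dusp5, which also act on nuclear MAP kinases, fell by 2.21 ± 0.24, 1.56 ± 0.14 and 1.90 ± 0.32. Dusp5, whose window above holds both CArG boxes, read -2.21, -2.04 and -2.30, against -0.30, -0.20 and -0.32 (adjusted p = 0.00351), and lost its call under quantile normalization. Dusp4, Dusp2 and Dusp5 kept levels above 0h, by 1.82 (adjusted p = 6.84e-07), 1.64 (adjusted p = 0.000183) and 0.94 (adjusted p = 0.0484). The EGF receptor inhibitor Errfi1 fell by 1.34 ± 0.18 (adjusted p = 0.000646) and the FGF antagonist Il17rd by 0.97 ± 0.14 (adjusted p = 0.00105). Spred1, a Ras inhibitor, had a change of -0.74 ± 0.20 that missed the threshold (adjusted p = 0.0678). Dusp7, a cytoplasmic relative of Dusp6, changed by -0.04 (adjusted p = 1).

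**Figure D1:**
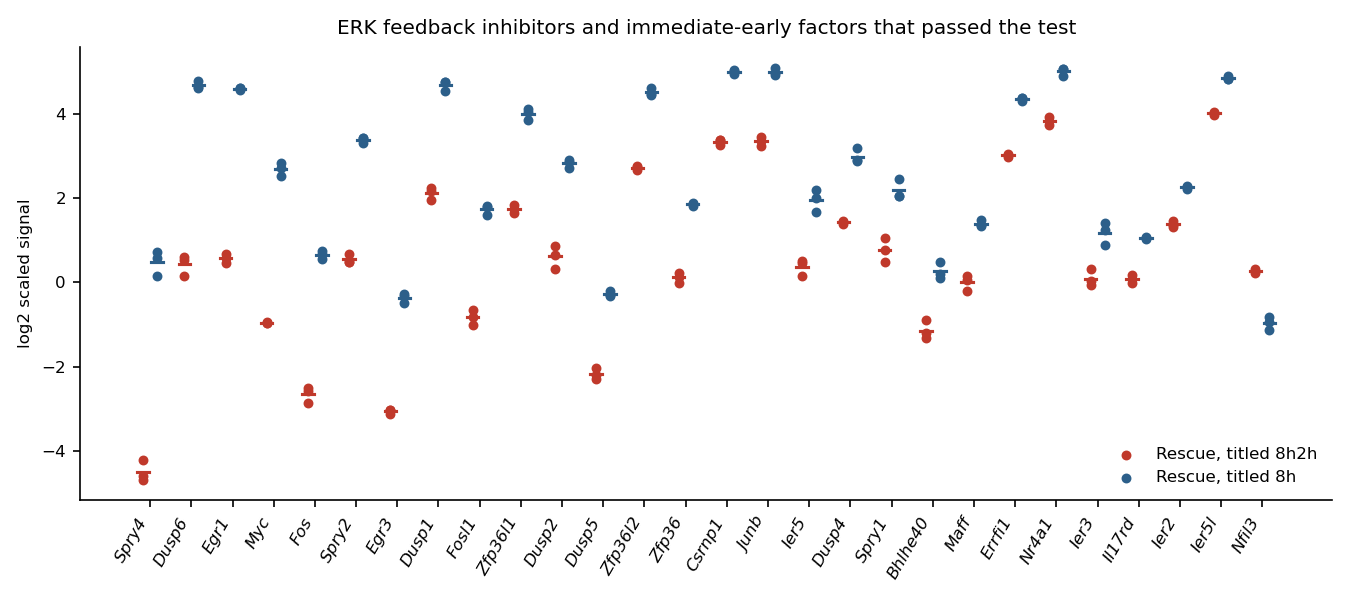
Log2 scaled signal (y axis) of the feedback and immediate-early genes that passed the test (x axis), with a point per array, arrays titled 8h2h left in red and those titled 8h right in blue, and a bar at each mean of 3 arrays. The genes were chosen by passing on these same arrays, so the gap between their groups adds no support. Nfil3 alone is higher on the arrays titled 8h2h.

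Many immediate-early transcription factors and other fast response genes fell. All 34 listed were tested, of which 17 fell, 1 rose and 16 did not pass, with a median of -1.13. The 17 remained 17 in number without any 1 of the 6 arrays, and paired by slide 25 fell and 4 rose. This compares with 1.45% of all genes lower.

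Egr1, a zinc finger factor, read 0.47, 0.67 and 0.57, against 4.60, 4.60 and 4.57, a change of -4.02 ± 0.15 (adjusted p = 2.76e-09). It ended 0.60 ± 0.15 above its 0h mean (adjusted p = 0.0124). Egr3, a relative of Egr1, fell by 2.70 ± 0.18, to -3.13, -3.03 and -3.02, against -0.50, -0.32 and -0.28. Egr3 was not well above background on any array titled 0h. Egr2 changed by -1.51 ± 0.49 and missed the threshold (adjusted p = 0.158).

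Of the AP-1 subunits, Fos read -2.87, -2.59 and -2.52, against 0.54, 0.68 and 0.73, a change of -3.31 ± 0.31 (adjusted p = 2.04e-05). It ended 1.11 ± 0.31 below 0h (adjusted p = 0.0183). Fosl1, a more stable relative, read -1.02, -0.82 and -0.65, against 1.60, 1.81 and 1.78 (-2.56 ± 0.47, adjusted p = 0.00773), and stayed 2.66 ± 0.47 above 0h (adjusted p = 0.00101). So the arrays titled 8h2h held Fos below and Fosl1 above the untreated level. Fosl1 lost its call under quantile normalization. Junb fell by 1.64 ± 0.20 (adjusted p = 0.00025), whereas Jun (-1.08 ± 0.28, adjusted p = 0.0623) and Fosb (-1.36 ± 0.39, adjusted p = 0.0928) missed the threshold.

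Myc, a growth-promoting transcription factor, read -0.94, -0.98 and -0.97, against 2.83, 2.72 and 2.52. Its change was -3.65 ± 0.14 (adjusted p = 2.76e-09) and its level fell below 0h by 1.43 ± 0.14 (adjusted p = 6.05e-06). Elsewhere in the MYC, MAX and MXD network, Mycl rose by 1.48 ± 0.23 (adjusted p = 0.00249), with -2.29, -2.19 and -2.14, against -3.92, -3.76 and -3.39, and lost its call under quantile normalization. The MYC antagonist Mxd3 rose by 1.46 ± 0.22 (adjusted p = 0.0014), lost without scaling. Mycn changed by -0.44 (adjusted p = 0.907). Of the 13 members tested, 2 rose, 1 fell and 10 did not pass.

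The 3 listed members of the Zfp36 family, which bind AU-rich mRNA elements and speed mRNA decay, all fell. Zfp36l1 fell by 2.27 ± 0.16 (adjusted p = 8.83e-07), to 1.83, 1.73 and 1.64, against 4.12, 4.04 and 3.85, but a second probe of the gene changed by only -0.19. Zfp36l2 fell by 1.79 ± 0.11 (adjusted p = 2.76e-07). Zfp36, whose window holds an ETS match and a CArG box, read -0.01, 0.22 and 0.14, against 1.88, 1.85 and 1.82 (-1.73 ± 0.15, adjusted p = 7.84e-06), within 0.02 of its 0h mean (adjusted p = 0.946). The serum-induced genes Ier2, Ier3, Ier5 and Ier5l fell by 0.88, 1.08, 1.59 and 0.84, the orphan nuclear receptor Nr4a1 by 1.18 and the nuclear factor Csrnp1 by 1.66. Nfil3, a basic leucine zipper repressor, was the 1 member that rose, by 1.24 ± 0.20 (adjusted p = 0.0032), with 0.22, 0.27 and 0.32, against -1.14, -0.95 and -0.83.

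Some genes known as ERK outputs did not pass the test. Among 18 tested ETS factors and corepressors, 2 rose and 1 fell. Etv4, an ETS factor induced by FGF signalling, read 3.89, 4.30 and 4.15, against 3.99, 4.34 and 4.39 (-0.12 ± 0.29, adjusted p = 1), so its groups overlapped. Its relative Etv5 changed by -0.01 ± 0.13 (adjusted p = 1) and the G1 cyclin Ccnd1 by 0.10 ± 0.19 (adjusted p = 1). Etv4 stood 1.84 ± 0.29 above 0h on the arrays titled 8h2h (adjusted p = 0.000434), and Etv5 0.55 ± 0.13 below it (adjusted p = 0.00643). Elf3, an epithelial ETS factor, rose by 1.27 ± 0.17 (adjusted p = 0.000726), lost without scaling, and Elf1 rose by 0.67 ± 0.14 (adjusted p = 0.0175). The EGR corepressor Nab2 fell by 1.12 ± 0.27 (adjusted p = 0.0395), a call lost without each of the 6 arrays (adjusted p = 0.109 to 0.156), and that of Elf1 was lost without 5 of them (up to 0.0808).

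Genes of the cascade itself were counted against the 2.88% of all genes that passed, and a count near that share is no result about them. Of 41 listed receptor kinases, Ras, Raf, Mek and ERK genes and adaptors, 39 were tested and 0 passed (3 at an unadjusted p under 0.05, limma), with changes from -0.60 for Fgfr4 to 0.51 for Pdgfra and a median of 0.03. Paired by slide, 3 rose and 2 fell. The kinase gene Map2k1 changed by -0.02.

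Secreted ligands were lower more often than higher on the arrays titled 8h2h. Of 40 growth factor and cytokine genes listed, 32 were tested, 7 fell, 1 rose and 24 did not pass, with a median of -0.41. Without 1 of the 6 arrays 5 or 6 fell and 0 rose. Paired by slide 18 fell and 7 rose.

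The chemokine Ccl20 read -0.57, -0.13 and 0.12, against 4.19, 4.51 and 4.63, a change of -4.64 ± 0.34 (adjusted p = 1.58e-06). It remained 4.27 ± 0.34 above its 0h mean (adjusted p = 7.08e-07), so the level on the arrays titled 8h2h lay between those of the other groups. Hbegf, an EGF receptor ligand, read 0.19, 0.36 and 0.49, against 2.83, 2.96 and 2.96 (-2.57 ± 0.21, adjusted p = 6.75e-06), 0.23 ± 0.21 from 0h (adjusted p = 0.518). The interleukin Il11 fell by 2.35 ± 0.29 (adjusted p = 0.0003), lost under quantile normalization. Areg and Ereg, further EGF receptor ligands, were above background on only part of the arrays. Areg changed by -3.33 ± 0.81 (adjusted p = 0.0417, lost without each of the 6 arrays, 0.121 to 0.142) and Ereg by -2.48 ± 0.68 (adjusted p = 0.0778).

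The bone morphogenetic protein Bmp4 fell by 1.56 ± 0.29 (adjusted p = 0.00738), to 1.06, 0.47 and 0.74, against 2.68, 2.14 and 2.13. It lost its call without scaling. Vegfc, a lymphatic growth factor, fell by 0.68 ± 0.11 (adjusted p = 0.0025). The signalling ligand Wnt5a fell by 0.91 ± 0.20 (adjusted p = 0.0206), lost without 4 of the 6 arrays (up to 0.103). Fgf4, an FGF ligand made by embryonic stem cells, rose by 0.82 ± 0.21 (adjusted p = 0.0467), with 3.72, 3.63 and 3.50, against 2.97, 2.78 and 2.63. It stayed 0.95 below 0h (adjusted p = 0.00433), and its call was lost without each of the 6 arrays.

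Genes of a list drawn up for invasion, adhesion and AP-1 targets fell in part. Whether AP-1 induces each member was not tested. Of 34 listed, 28 were tested, 4 fell, 0 rose and 24 did not pass, with a median of -0.29, and paired by slide 16 fell and 2 rose. Epha2, an ephrin receptor, read 0.93, 1.51 and 1.49, against 4.21, 4.42 and 4.31 (-3.01 ± 0.20, adjusted p = 8.65e-07), and ended 1.83 ± 0.20 below 0h (adjusted p = 1.89e-05). The urokinase receptor Plaur fell by 1.49 ± 0.22 (adjusted p = 0.00118), with 4.16, 4.42 and 4.44, against 5.69, 5.95 and 5.87. Phlda1, a pleckstrin-homology protein, fell by 2.41 ± 0.35 (adjusted p = 0.00121) and the metalloproteinase inhibitor Timp1 by 0.74 ± 0.16 (adjusted p = 0.024, lost without each of the 6 arrays, 0.0531 to 0.11). Plaur, Phlda1 and Timp1 all kept levels above 0h, by 1.19, 1.87 and 2.14.

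Outside the lists, the natriuretic peptide gene Nppb fell most among genes measured on all 6 arrays, by 4.40 ± 0.27 (adjusted p = 3.29e-07), with -0.38, 0.15 and 0.00, against 3.94, 4.61 and 4.41. The heparan sulfate sulfotransferase Hs3st3b1 fell by 2.81 ± 0.15 (adjusted p = 1.41e-07). Cyp26a1, which degrades retinoic acid, read -0.59, -0.42 and -0.67, against 3.03, 2.96 and 2.54 (-3.41 ± 0.31, adjusted p = 2.04e-05), and stayed 2.37 ± 0.31 above 0h (adjusted p = 8.39e-05). Of the 19 retinoic acid genes tested, 2 fell and 1 rose. The retinal reductase Dhrs3 rose by 1.76 ± 0.26 (adjusted p = 0.00132, lost without scaling and with normexp), to 1.44 ± 0.26 below 0h (adjusted p = 0.00112). Rarg, a retinoic acid receptor, was the other one lower (-0.64 ± 0.16, adjusted p = 0.0426, lost without each of the 6 arrays, 0.0534 to 0.205).

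**Figure D2:**
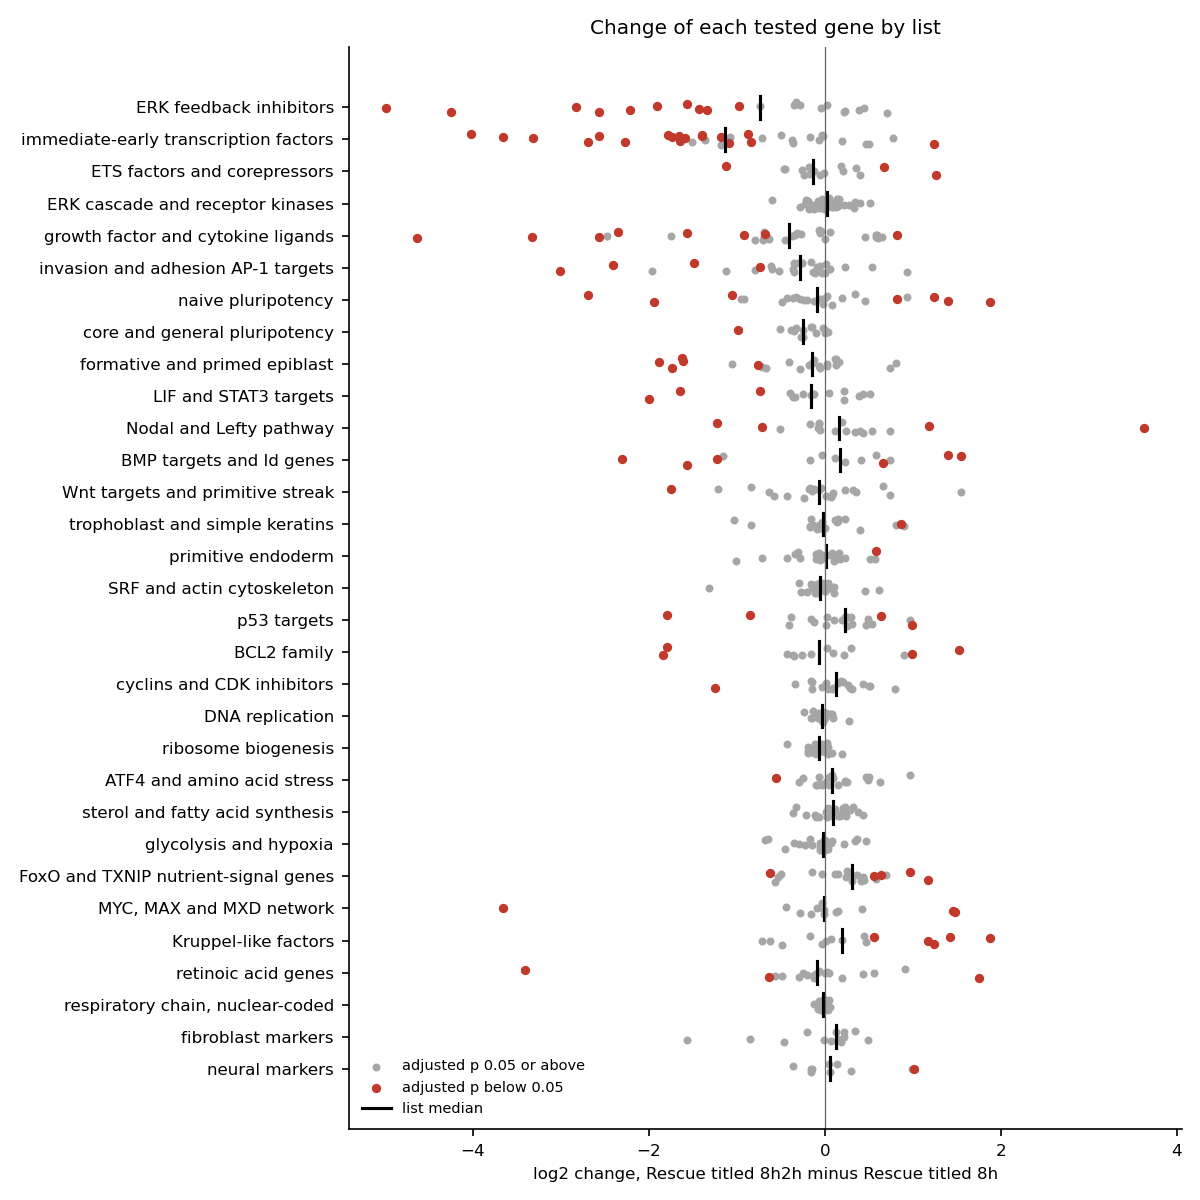
Log2 change, 8h2h minus 8h (x axis), of each tested gene by list (rows), with genes that passed the test in red, others in grey and a bar at each list's median. The medians of the feedback and immediate-early lists lie at -0.74 and -1.13, while those of the respiratory chain and DNA replication lists lie at -0.02 and -0.03.

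Naive pluripotency factors, which hold embryonic stem cells in the ground state, moved both ways. All 26 listed were tested, 4 rose (Klf2, Nanog, Klf4 and Fgf4), 3 fell (Gbx2 and Nr5a2 among them) and 19 did not pass, with a median of -0.09. The count of 4 became 1 to 3 without 1 of the 6 arrays and that of 3 did not change. Paired by slide 7 rose and 10 fell.

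Klf2 read 4.20, 4.15 and 4.01, against 2.40, 2.07 and 2.27, a rise of 1.87 ± 0.20 (adjusted p = 6.4e-05), to 0.46 ± 0.20 below its 0h mean (adjusted p = 0.114). Klf4 read 2.77, 2.30 and 2.38, against 1.43, 1.11 and 1.17 (1.25 ± 0.26, adjusted p = 0.0148), and stayed 0.94 ± 0.26 below 0h (adjusted p = 0.016). On each slide both were higher in the array titled 8h2h. The call of Klf4 was lost without slide a of 8h2h, slide b of 8h or slide c of 8h (up to 0.0875).

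Nanog read -0.48, -1.77 and -1.37, against -2.46, -2.79 and -2.58 (1.40 ± 0.34, adjusted p = 0.0416). It stayed 3.33 ± 0.34 below its 0h mean of 2.12 (adjusted p = 8.31e-06). The call of Nanog rests on 1 probe, since its second probe, also above background on all 6 arrays, changed by -0.30. With the mean of both probes it was lost, as without 5 of the 6 arrays (up to 0.199), with only the one without slide b of 8h2h keeping it. Esrrb changed by -0.28 ± 0.26 (adjusted p = 0.969, and 0.0268 paired by slide), and stayed 2.78 ± 0.26 below 0h (adjusted p = 3.95e-06).

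Gbx2, a homeobox factor, read -1.57, -1.81 and -1.59, against 1.18, 0.87 and 1.05 (-2.69 ± 0.25, adjusted p = 2.47e-05). The groups did not overlap, and Gbx2 lay below its 0h level by 1.55 ± 0.25 on the arrays titled 8h2h. The orphan nuclear receptor Nr5a2 fell by 1.05 ± 0.16 (adjusted p = 0.0019), lost without scaling, and lay 1.08 ± 0.16 below 0h.

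Of 15 core and general pluripotency genes, 1 fell and 14 did not pass, with a median of -0.25. Over all genes 1.45% were lower. Paired by slide 7 fell and 0 rose. Sox2 read 3.10, 3.10 and 3.05, against 4.08, 4.07 and 4.07 (-0.99 ± 0.14, adjusted p = 0.000836). It differed from 0h by -0.90 ± 0.14 (adjusted p = 0.00028) on the arrays titled 8h2h, and on those titled 8h by 0.09 (adjusted p = 0.69). Pou5f1, the other central factor, changed by -0.25 ± 0.15 (adjusted p = 0.704), with 5.45, 5.72 and 5.65, against 5.88, 5.90 and 5.79. The Sox2 call was lost without scaling.

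Formative and primed epiblast genes, which mark cells past the naive state, fell in 5 of the 23 tested and rose in 0, with a median of -0.14 and 4 or 5 lower without 1 of the 6 arrays. Paired by slide 10 fell and 2 rose. Pou3f1, a POU factor, read 1.90, 1.87 and 1.98, against 3.76, 3.58 and 3.60 (-1.73 ± 0.22, adjusted p = 0.000366), 0.32 ± 0.22 from its 0h mean (adjusted p = 0.349). Otx2, a homeobox factor, read 0.47, -0.49 and -0.34, against 2.07, 1.16 and 1.28 (-1.62 ± 0.29, adjusted p = 0.00581), with slide a highest in both groups. Foxd3 read -1.23, -1.90 and -1.90, against 0.62, 0.02 and -0.02 (-1.88 ± 0.21, adjusted p = 0.000111). Otx2 and Foxd3 ended below 0h, by 1.22 ± 0.29 and 2.04 ± 0.21. Sox4 fell by 1.61 ± 0.18 and the epithelial factor Grhl2 by 0.76 ± 0.15 (adjusted p = 0.0147, lost without 4 of the 6 arrays, up to 0.0701). The DNA methyltransferase genes Dnmt3a and Dnmt3b changed by 0.12 and 0.13 (adjusted p = 1 each). Otx2 and Sox4 lost their calls without scaling.

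**Figure D3:**
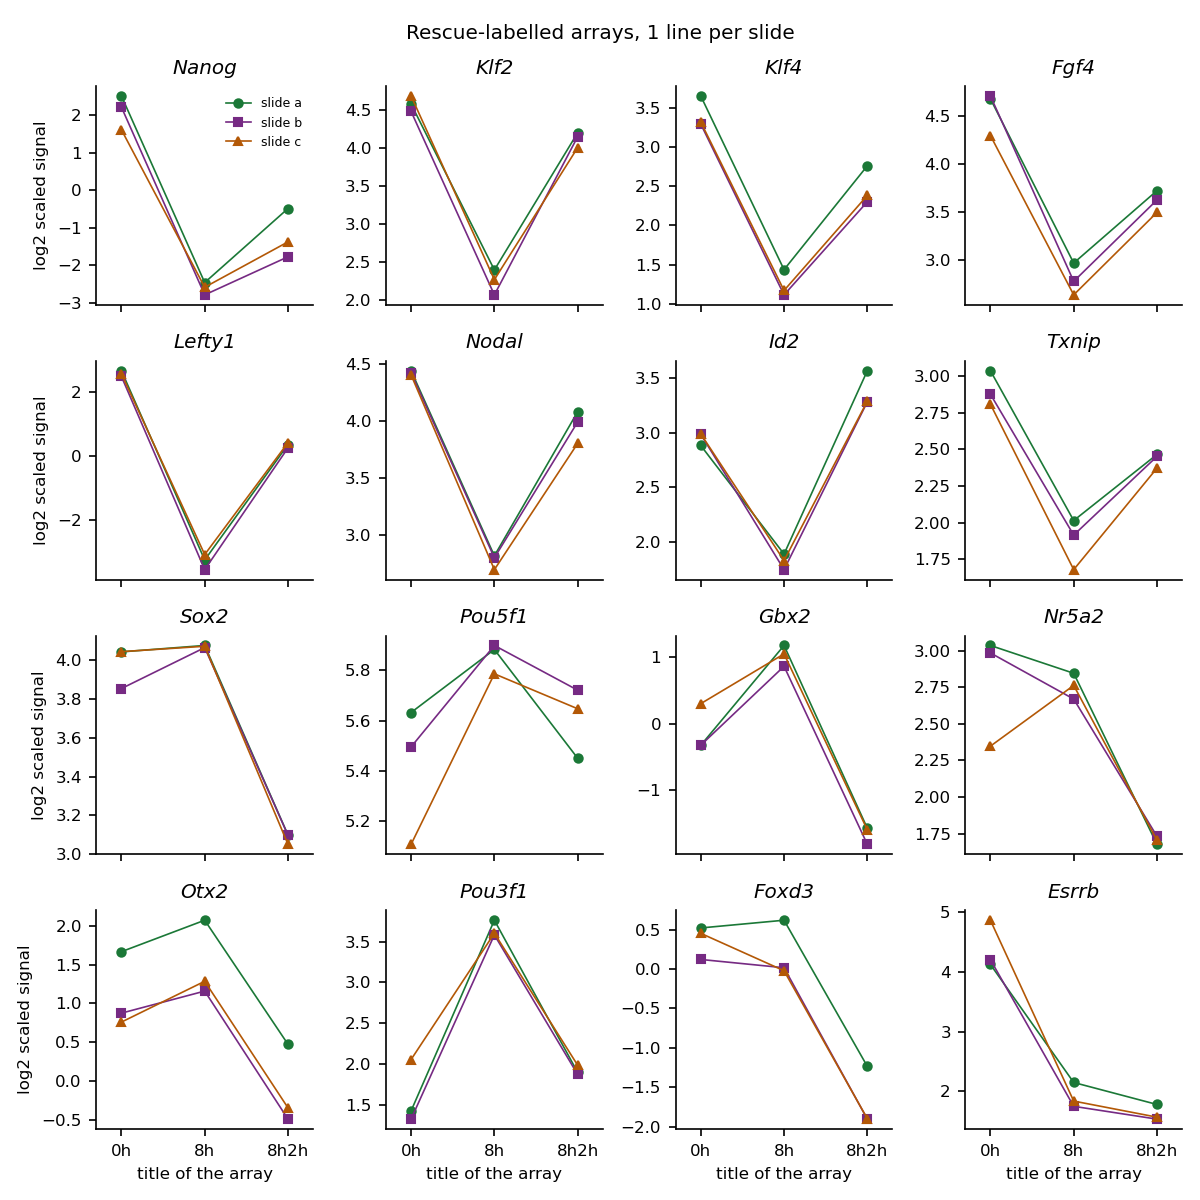
Log2 scaled signal (y axis) of 16 genes on the Rescue-labelled arrays titled 0h, 8h and 8h2h (x axis), with a line per slide. Nanog, Klf2, Klf4, Fgf4, Lefty1, Nodal, Id2 and Txnip lie higher at 8h2h than at 8h on all 3 slides, while Sox2, Pou5f1, Gbx2, Nr5a2, Otx2, Pou3f1, Foxd3 and Esrrb lie lower.

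In the Nodal pathway, a TGF-beta family signal of the early embryo, the ligand gene Nodal and the gene of its secreted inhibitor Lefty1 rose. Lefty1 read 0.35, 0.24 and 0.41, against -3.25, -3.55 and -3.08, a rise of 3.63 ± 0.72 (adjusted p = 0.0125), to 2.23 ± 0.72 below 0h (adjusted p = 0.0401). Its call was lost without slide a or c of 8h2h or slide b of 8h (up to 0.0635). Nodal read 4.08, 3.99 and 3.81, against 2.82, 2.80 and 2.70 (1.19 ± 0.14, adjusted p = 0.000177), lost without scaling. Lefty2, the gene of a related inhibitor, changed by -0.05 (adjusted p = 1). Smad7, an inhibitory Smad, fell by 1.23 ± 0.20 (adjusted p = 0.00277, lost without scaling and under quantile normalization) and the corepressor Tgif1 by 0.71 ± 0.16 (adjusted p = 0.0242, lost without 5 of the 6 arrays, up to 0.132). Of the 18 members tested, 2 rose, 2 fell and 14 did not pass, and paired by slide 8 rose and 3 fell.

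Among 14 tested BMP targets and Id genes, 3 rose and 3 fell. Id2, a helix-loop-helix inhibitor, read 3.56, 3.28 and 3.29, against 1.89, 1.75 and 1.83 (1.55 ± 0.19, adjusted p = 0.000341), 0.43 ± 0.19 from 0h (adjusted p = 0.142). Of its relatives, Id4 rose by 1.40 ± 0.31 (adjusted p = 0.0253, lost without each of the 6 arrays, 0.0631 to 0.129), Id1 changed by -0.17 ± 0.26 (adjusted p = 1) and Id3 by -1.16 (adjusted p = 0.0602). The homeobox gene Msx1 fell by 2.31 ± 0.27 (adjusted p = 0.000226), with 1.26, 1.12 and 0.81, against 3.65, 3.39 and 3.08. Msx2 rose by 0.66 ± 0.15 (adjusted p = 0.0288, lost without 5 of the 6 arrays, up to 0.158). Differences between these relatives were not tested.

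Krüppel-like factors rose in 5 of 15 tested and fell in 0, against 1.43% higher and 1.45% lower over all genes. Paired by slide 7 rose and 3 fell. Besides Klf2 and Klf4 these were Klf8 (0.56 ± 0.11, adjusted p = 0.0125), Klf11 (1.42 ± 0.35, adjusted p = 0.0434) and Klf15 (1.17 ± 0.28, adjusted p = 0.0383). Without 1 of the 6 arrays the count was 1 to 3, with Klf11 and Klf15 lost without each (0.111 to 0.183 and 0.0588 to 0.2) and Klf8 without 3 (up to 0.0786). Klf5 changed by -0.48 (adjusted p = 0.225). LIF and STAT3 targets fell in 3 of 15 and rose in 0, and paired by slide 7 fell and 4 rose. The kinase gene Pim1 fell by 1.99 ± 0.18 (adjusted p = 1.58e-05), with 1.65, 2.13 and 2.06, against 3.69, 4.09 and 4.05, Junb as above, and the cytokine inhibitor gene Socs2 by 0.73 ± 0.16 (adjusted p = 0.0211, lost without 4 of the 6 arrays, up to 0.112). Socs3, which STAT3 induces, changed by 0.22 (adjusted p = 0.775).

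Pro-apoptotic BH3-only genes moved in both directions. Bcl2l11, which encodes Bim, read 2.26, 2.07 and 2.04, against 4.20, 3.88 and 3.80 (-1.84 ± 0.14, adjusted p = 2.28e-06), while its 3 other kept probes changed by -0.43, -0.58 and -0.62, and the call was lost with the mean of all probes. Pmaip1, which encodes Noxa, fell by 1.80 ± 0.15 (adjusted p = 9.97e-06), with -0.10, -0.13 and -0.07, against 1.81, 1.71 and 1.56. Bmf rose by 1.53 ± 0.20 (adjusted p = 0.000683), with 0.23, -0.09 and 0.10, against -1.46, -1.47 and -1.41. Bbc3, which encodes Puma, rose by 0.99 ± 0.19 (adjusted p = 0.00886), lost without scaling. On each slide, then, Bim and Noxa transcripts were lower and Bmf and Puma transcripts higher in the array titled 8h2h.

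The anti-apoptotic genes Bcl2l1 and Mcl1 changed by -0.43 (adjusted p = 0.113) and -0.16 (adjusted p = 1). Of 22 p53 targets, which include Bbc3 and Pmaip1, 2 rose and 2 fell, with a median of 0.23. Over all genes 1.43% were higher and 1.45% lower. Paired by slide 12 rose and 4 fell, in a fit where 25.6% of all genes passed. Sesn1, a stress-induced regulator of nutrient signalling, rose by 0.64 ± 0.12 (adjusted p = 0.00755, lost without scaling), the kinase gene Plk3 fell by 0.85 ± 0.19 (adjusted p = 0.0239, lost without each of the 6 arrays, 0.0661 to 0.108), and Cdkn1a changed by 0.31 (adjusted p = 0.698). Of 23 tested FoxO and TXNIP genes Sesn1, Klf15, Trim63 and Txnip rose and Bcl6 fell, and paired by slide 11 rose and 4 fell. Without 1 of the 6 arrays 1 or 2 rose and 0 fell. Trim63, a muscle ubiquitin ligase, and the repressor Bcl6 lost their calls without each of the 6 arrays (Trim63 0.0943 to 0.191, Bcl6 0.0939 to 0.185).

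Housekeeping and growth programmes were also counted against the 2.88% of all genes that passed, and counts near that share are no result about them. The 26 DNA replication genes, 26 respiratory chain genes, 27 ribosome biogenesis genes, 26 sterol genes, 25 glycolysis genes and 26 SRF and actin genes had 0 calls each in limma (1, 0, 2, 4, 1 and 3 at an unadjusted p under 0.05), with medians from -0.06 to 0.10. Paired by slide the highest numbers were 6 rising and 3 falling sterol genes and 4 rising and 6 falling glycolysis genes. In that fit 25.6% of all genes passed. Of 20 cyclins and CDK inhibitors only E2f2, a cell cycle transcription factor, passed (-1.25 ± 0.12, adjusted p = 3.66e-05), and it was lost without scaling. Of 23 ATF4 targets only the amino acid transporter Slc7a5 passed (-0.55 ± 0.12, adjusted p = 0.0221), lost without each of the 6 arrays (0.0511 to 0.118).

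Markers of other cell types were counted against the 2.88% of all genes that passed. In limma 0 of 13 tested fibroblast markers passed (2 at an unadjusted p under 0.05, and 0 higher and 2 lower paired by slide). One of 24 primitive endoderm genes rose, Amn (0.58 ± 0.09, adjusted p = 0.00308, lost with normexp, quantile normalization, no scaling or a trended prior, up to 0.93), 1 of 21 trophoblast genes, Tfap2a (0.87 ± 0.19, adjusted p = 0.0217, lost without each of the 6 arrays, 0.0511 to 0.123), and 1 of 10 neural genes, Tubb3 (1.01 ± 0.21, adjusted p = 0.0151, lost without 5 of them, up to 0.0744). Cdx2, a trophectoderm factor, changed by -1.03 ± 0.34 (adjusted p = 0.166), and passed when paired by slide (adjusted p = 0.0041). In bulk arrays fewer cells of a type and less RNA per cell cannot be told apart. Of 23 Wnt and primitive streak genes 1 fell, the homeobox gene Evx1 (-1.75 ± 0.32, adjusted p = 0.00658, lost without scaling and under quantile normalization).

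Outside the lists, some of the genes that rose most are described here. Sall3, a zinc finger factor, read -1.55, -1.77 and -1.78, against -4.05, -3.89 and -3.65 (2.16 ± 0.13, adjusted p = 2e-07), to 1.02 ± 0.13 below 0h. Foxj1, the master factor of motile cilia, rose by 2.39 ± 0.54 (adjusted p = 0.0267) and the Notch ligand Dll1 by 2.27 ± 0.53 (adjusted p = 0.0332), both lost without each of the 6 arrays (0.0661 to 0.132 and 0.0594 to 0.163). The ephrin ligand Efna1 rose by 1.95 ± 0.27 (adjusted p = 0.000936, lost under quantile normalization, 0.244), while its receptor gene Epha2 fell as above. Rasgrp1, a Ras exchange factor, rose by 1.89 ± 0.27 (adjusted p = 0.000965), with -1.79, -1.82 and -1.64, against -3.62, -3.73 and -3.59. The sulfotransferase Hs3st6 rose by 1.96 ± 0.24 (adjusted p = 0.000259).

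Genes not read above background on any array of one group have only a bound, the mean of the bright group against the dimmest level read above background. The potassium channel gene Kcnj8 was at least 9.04-fold higher on the arrays titled 8h2h (adjusted p = 0.0148, lost without 4 of the 6 arrays, up to 0.07). The neurotrophin Ntf3 was at least 3.75-fold higher (adjusted p = 0.0125, lost without 4 of the 6, up to 0.0715) and the radial spoke gene Rsph4a, of the ciliary axoneme, at least 2.38-fold higher (adjusted p = 0.00424, lost with normexp, 0.616, and under quantile normalization, 0.103). With normexp Kcnj8 and Ntf3 were lost too (0.0563 and 0.268). The forkhead gene Foxc2 was at least 2.88-fold lower, but was well above background only on the arrays titled 8h of the Rescue-labelled line and was tested through them, so no p is given.

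Levels on the arrays titled 8h2h were also set beside the untreated ones. Of the 233 genes that fell, 90 had a mean on the arrays titled 8h2h below that of 0h. Of the 229 that rose, 136 did. These counts are descriptions of means. The same share over all genes was not counted, so no excess or lack can be read from them. Both comparisons with 0h share arrays with the one described here.

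The KO-labelled line, on arrays not shared with the Rescue-labelled one, showed the same direction in most of these genes. In it 1177 genes passed (7.35%), 664 higher and 513 lower. Of the 233 genes lower in the Rescue-labelled line, 199 were lower in both (85.4% of the Rescue-labelled and 38.8% of the KO-labelled list), and 176 were higher in both (76.9% and 26.5%). Of the 462 Rescue-labelled calls, 453 (98.1%) had the same sign in the KO-labelled line. The share of genes with the same sign over all genes was not counted. Calls of both lines come from the same fit with 1 spread per gene, so the 2 lists are not independent. The KO-labelled counts include the high-background array. Across all 16022 genes, which share probes and slides and are not independent, the changes of the lines correlated at r = 0.563. Dusp6 fell by 4.41 in the KO-labelled line, Fos by 3.78, Myc by 4.26 and Sox2 by 0.58 (adjusted p = 0.0197), and Klf2 rose by 1.97. Nanog changed by 1.19 there and missed the threshold (adjusted p = 0.0508).

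**Figure D4:**
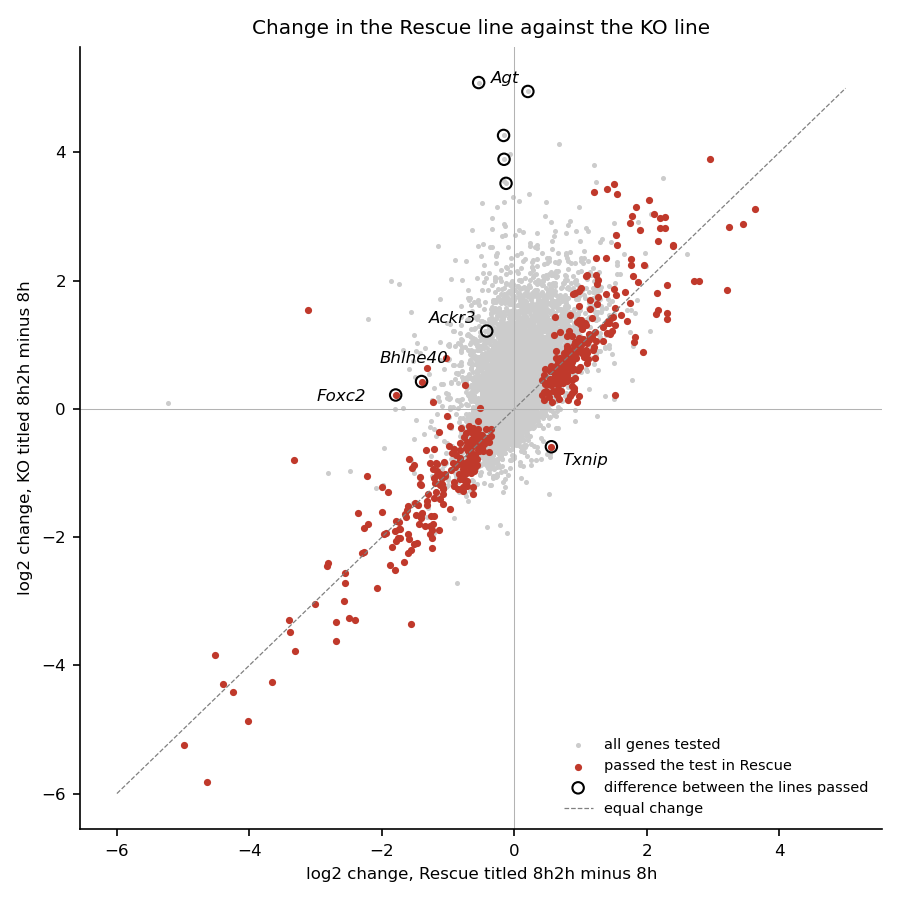
Log2 change, 8h2h minus 8h, in the Rescue-labelled line (x axis) and the KO-labelled line (y axis), with each of 16022 genes as a point, Rescue-labelled calls in red, the 9 genes that differed between the lines ringed, and a dashed line of equal change. Most red points lie near that line, whereas the ringed Txnip, Bhlhe40, Ackr3 and Foxc2 lie off it.

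For 9 genes (0.0562%) the lines differed in this change by limma's test, and in the Rescue-labelled line the change was higher for 1 of them and lower for 8. Txnip, which binds thioredoxin and restrains glucose uptake, moved in opposite directions. It read 2.46, 2.45 and 2.37 on the arrays titled 8h2h, against 2.02, 1.92 and 1.68 on those titled 8h in the Rescue-labelled line (0.56 ± 0.12, adjusted p = 0.0183). In the KO-labelled line it read 2.25, 2.00 and 2.15, against 2.73, 2.82 and 2.63 (-0.59, adjusted p = 0.00752). The difference was 1.15 ± 0.17 (adjusted p = 0.0155). The Rescue-labelled call of Txnip alone was lost without 5 of the 6 arrays (up to 0.107) and with the mean of its probes. The line difference of Txnip was also lost with the mean of its probes (adjusted p = 0.102) and without scaling (adjusted p = 1).

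Bhlhe40, a helix-loop-helix repressor, fell by 1.40 ± 0.20 in the Rescue-labelled line, with -0.91, -1.33 and -1.20, against 0.48, 0.09 and 0.20. In the KO-labelled line Bhlhe40 read -1.39, -1.05 and -1.63 on the arrays titled 8h2h, and its highest value on those titled 8h was -1.58, a change of 0.43. The difference was -1.83 ± 0.28 (adjusted p = 0.0257), and lost its call when the high-background array was left out (0.0525) and without scaling (1). The chemokine receptor Ackr3 read 1.11, 1.20 and 1.19, against 1.47, 1.71 and 1.57, in the Rescue-labelled line (-0.42 ± 0.14, adjusted p = 0.152, and 0.0115 paired by slide) and 0.94, 0.52 and 0.88, against -0.74, -0.22 and -0.34, in the KO-labelled line (1.21, adjusted p = 5.93e-05). The difference was -1.63 ± 0.19 (adjusted p = 0.00335, lost without scaling, 0.243). Foxc2 was not above background on any KO-labelled array, so its difference is not a measured fold. The other 5 were above background only on the KO-labelled arrays titled 8h2h and are given in the closing section. These 6 were tested only through the group in which they were bright.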

How the data were processed

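RNA of 18 samples was measured on 1-colour Agilent arrays, 1 array each, from 100 ng of RNA per the labels' protocols. The authors deposited the processed signal intensity of each spot, made with Agilent Feature Extraction 12.0.1.1 per the file headers, and a table of values whose intensity was identical on every spot. Log2 intensity was reduced by each array's 75th percentile of non-control spots, spots of a probe were averaged and outlier spots left out. Probes had to be well above background on every array of some group to be kept. Probes were named through RefSeq transcripts, 32994 of 56605 matching a symbol, and each of 16022 genes was read from its brightest kept probe.

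Groups were fitted over all 18 arrays, without a term for slide, with limma 3.58.1 in R 4.3.3. Genes passed at a two-sided Benjamini-Hochberg adjusted p under 0.05, which is the adjusted p printed throughout. The fit was also run on simulated arrays with independent spread, known changes and no slide effect. Such a run cannot show its error rate on the real arrays. The number of arrays, 3 a group, limits the precision. Deviations from group means correlated at 0.733, 0.516 and 0.451 between arrays of slides a, b and c, each highest for its own slide, so the letters pair the arrays. Alternatives were the background correction, scaling, filter, probe rule, slide block, arrays in the fit, variance prior and leaving out arrays. The genes named were the 15 largest measured changes each way, the 6 largest bounded ones, up to 6 called members of each list, the largest line differences and a fixed set. Others, such as list members that did not pass, were chosen after their values were seen. The comparison and the 32 lists were chosen with earlier results of these data known. Some genes that the rule names are not reported here.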

Additional observations from a re-analysis of the deposited data

Results flagged for a closer look

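In 9 genes the change, 8h2h minus 8h, differed between the Rescue-labelled and the KO-labelled line by a test of the difference itself in limma. The difference, Rescue-labelled minus KO-labelled, was 1.15 for Txnip, -1.629 for Ackr3, -1.827 for Bhlhe40 and -2.008 for Foxc2, of which Foxc2 was not above background on any KO-labelled array.

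For 5 genes the difference was -5.629 ± 0.541 (Agt, which encodes angiotensinogen), -4.746 ± 0.616 (Lrrtm3), -4.426 ± 0.559 (9630013A20Rik), -4.048 ± 0.466 (Olfr1241) and -3.643 ± 0.47 (4930412B13Rik). These 5 were well above background on all 3 KO-labelled arrays titled 8h2h and on no array of the other 5 groups, so the sizes are not measured folds. They entered the test only through the group in which they were bright and had to differ, as Foxc2 did through the Rescue-labelled arrays titled 8h, and no p is given for these 6.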

How the results depend on the processing

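No gene that passed in the main fit passed with the opposite sign under any alternative run. A change of sign without passing was checked only for named genes, and no named gene that passed changed sign. Ccnd1 and Etv5, which did not pass, ranged from -0.029 to 0.22 and from -0.105 to 0.085. Against 462 genes passing (229 higher, 233 lower), fitting only the 6 arrays gave 1491 (854 higher, 637 lower), the 6 arrays with slide as a replicate block 4099 (2258 higher, 1841 lower), the 9 Rescue-labelled arrays 865 (509 higher, 356 lower) and leaving out the high-background array 718 (372 higher). Slide as a block over all 18 arrays gave 578 and ended no call of a named gene. No scaling between arrays gave 91 (38 higher, 53 lower, so 58.2% lower against 50.4%), normexp 335 (130 higher, 61.2% lower), and requiring a 2-fold change 211. Leaving out 1 of the 6 arrays gave 228 to 276, with 95 to 131 higher and 128 to 146 lower. Against the 9 line differences, 4 genes passed with normexp, 3 with quantile normalization, 5 without scaling and 4 with a trended and robust prior. Leaving out 1 array gave 7 to 17, and slide as a replicate block 12. Some of these were other genes. Of the 9 themselves, quantile normalization kept 1, leaving out 1 array 7 to 9, and slide as a replicate block 9. Of 96 named genes that passed, 32 kept the call in all 18 alternatives, 48 lost it without scaling, 35 without at least 1 of the 6 arrays and 18 without each of them. Why the calls changed was not tested. Unscaled, the median of all genes shifted by 0.073. Signals near background limit the 14 genes that passed with no array titled 8h above it and the 4 with none titled 8h2h.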
